A study of Drosophila melanogaster with 16 samples.

Results

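The comparison described here set the bodies of dfr14 larvae against the bodies of control larvae, both taken as wandering third-instar Drosophila melanogaster after the central nervous tissue had been cut away. It used 8 of the 16 RNA-seq libraries of the study, chosen by the sample titles: 4 libraries of dfr14 bodies and 4 libraries of control bodies. The deposited labels conflict: the genotype entry follows the tissue and not the title, with wild-type for all 8 bodies and the mutant allele for all 8 libraries of the other tissue. The titles alone separate the genotypes, so every value below stands in the group its title gives. The other 8 libraries were made of dissected brains with their ring glands (the brain and ring gland complex, BRGC) from other larvae of the same genotypes, and they are used below only to place a change seen in the body beside the change of the same gene there. "Body" means what was left of the larva once the BRGC, the mouth hooks and the salivary glands had been removed, so that fat body, gut, Malpighian tubules, muscle, epidermis, trachea, blood cells, imaginal discs and gonads were sequenced together.

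The dfr14 larvae were homozygous for a small CRISPR/Cas9 deletion just downstream of the first stop codon of ventral veins lacking (vvl, also called drifter, dfr). The deletion takes away the longer protein that is made when ribosomes read through that stop codon (Dfr-L) and leaves the shorter protein (Dfr-S). The line had been crossed to a balancer stock, and the control larvae were w1118, so any other difference in the genetic background between the stocks cannot be told apart from the deletion. No label gives the sex of the larvae. Each group had 4 biological replicates, and p-values rest on the spread between these samples. The main test (limma) moves the spread of each gene towards that of genes at a similar level. For a very abundant gene the standard error can therefore be wider than its own samples show.

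Vvl is a POU-domain transcription factor. It is known for its part in tracheal and wing vein development, in neurons and glia, in the immune tone of barrier epithelia and in the prothoracic gland, where it acts on genes for the synthesis of ecdysone, the steroid hormone that drives molting and pupariation. Stop-codon readthrough yields a protein with a longer carboxy-terminal end from the same mRNA, so the mutation leaves the coding sequence of the short protein and the transcription unit in place.

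The dfr14 libraries held between 17050491 and 27360849 reads assigned to genes, and the control libraries between 17759238 and 23001284. The body table covered 12509 genes, all given below as CPM, the reads of a gene per 1000000 reads of its library, on the scale the authors set between libraries. Defining markers of fat body, muscle, gut, blood cells and trachea were present in every library, with wide ranges: the muscle myosin gene Mhc ran from 13.7 to 1824 CPM in dfr14 bodies and from 73.6 to 886 CPM in control bodies. The fat body gene Lsp1alpha ran from 228 to 21402 CPM in dfr14 bodies and from 17.4 to 988 CPM in control bodies. Of the cuticle markers, Lcp1 was present in every library. Lcp3 had 12, 0.0487, 0.109 and 0.0569 CPM in dfr14 bodies, against 294, 3.12, 265 and 2.25 CPM in control bodies. Mhc, Lsp1alpha and Lcp3 overlapped between the genotypes and were not called. The dfr14 bodies differed among themselves. Libraries 1 and 2 stood above libraries 3 and 4 for Mhc (1824 and 466 against 20.9 and 13.7 CPM) and Lsp1alpha (21402 and 3627 against 228 and 251 CPM). The same held for the blood cell gene PPO1 (697 and 717 against 102 and 61.6 CPM). The summed level of Y-linked genes went the other way, with 23.63 and 12.56 against 53.75 and 59.86 CPM. Among the controls, 2 libraries stood apart. In control library 4, 1685 genes were not read at all, a number that lay between 32 and 189 for the remaining 7 bodies, and none of the 11 Y-linked genes listed was read. Control libraries 3 and 4 held transcripts of salivary gland glue proteins: Sgs3 stood at 0 to 0.0364 CPM in dfr14 bodies and at 0.632, 1.08, 1008 and 183 CPM in control bodies 1 to 4. Values without these 2 libraries are given beside the results. The median log2 fold change over all genes was 0.12, and -0.12 when libraries were scaled by their size alone, so a small change in 1 direction is to be read against that shift.

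The vvl gene itself (chromosome 3L, 6790158 to 6794941 in BDGP6, plus strand) was read in all bodies. It had 67.7, 75, 83.3 and 80.7 CPM in dfr14 bodies, against 51, 49.3, 47.8 and 59.4 CPM in control bodies. Every dfr14 value lay above every control value. The log2 fold change of 0.56 (SE 0.11) did not pass the threshold in the body (adjusted p = 0.066, limma with Benjamini-Hochberg adjustment over all genes), though it did with the Y-linked level as a covariate (adjusted p = 0.031), whereas in the BRGC the gene rose by 0.68 (adjusted p = 0.00077). The deletion leaves the gene's transcript in place and gene-level counts do not tell the readthrough product from the short one, so these values do not check the mutation. The test of the difference between the tissues gave -0.11 (SE 0.14, adjusted p = 0.77). Of the 5 POU-domain genes measured, none was called, and their median log2 fold change was 0.42.

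At an adjusted p under 0.05, 136 genes were higher in dfr14 bodies (1.09% of those tested) and 41 were lower (0.328%), together 1.41% of the table. With libraries scaled by size alone the split was 113 higher and 81 lower. Most of the called changes were large. Among the genes called higher, 63 had a log2 fold change between 2 and 4 and 32 exceeded 4, with a median of 2.75, and the median of the genes called lower was -2.89. A large share of these genes was close to silent in 1 genotype: 60 of the 136 had a mean under 1 CPM in control bodies, and 22 of the 41 had a mean under 1 CPM in dfr14 bodies. All 177 called genes separated the genotypes without overlap, and so did 6.61% of all genes in the higher direction and 2.53% in the lower direction. A log2 fold change above 0 was found in 63.0% of all genes. The counts per gene list below are to be read against these shares. In bodies of mixed tissues, more cells of a type and more RNA per cell cannot be told apart. The counts moved with single libraries. Leaving out dfr14 library 1, 2, 3 or 4 gave 63, 70, 59 or 83 genes called higher and 18, 18, 14 or 21 called lower. Leaving out control library 1 gave 62 and 18, control library 2 gave 57 and 15, control library 3 gave 95 and 33, and control library 4 gave 143 and 102. 43 of the 136 and 12 of the 41 were called in every one of these fits. Without both control libraries 3 and 4 there were 141 genes higher (1.13%) and 107 lower (0.855%), and these sets held 95 of the 136 and 25 of the 41. With voom weights, which weight each value by the spread its read count predicts, 49 genes were higher and 13 lower.

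**Figure D1:**
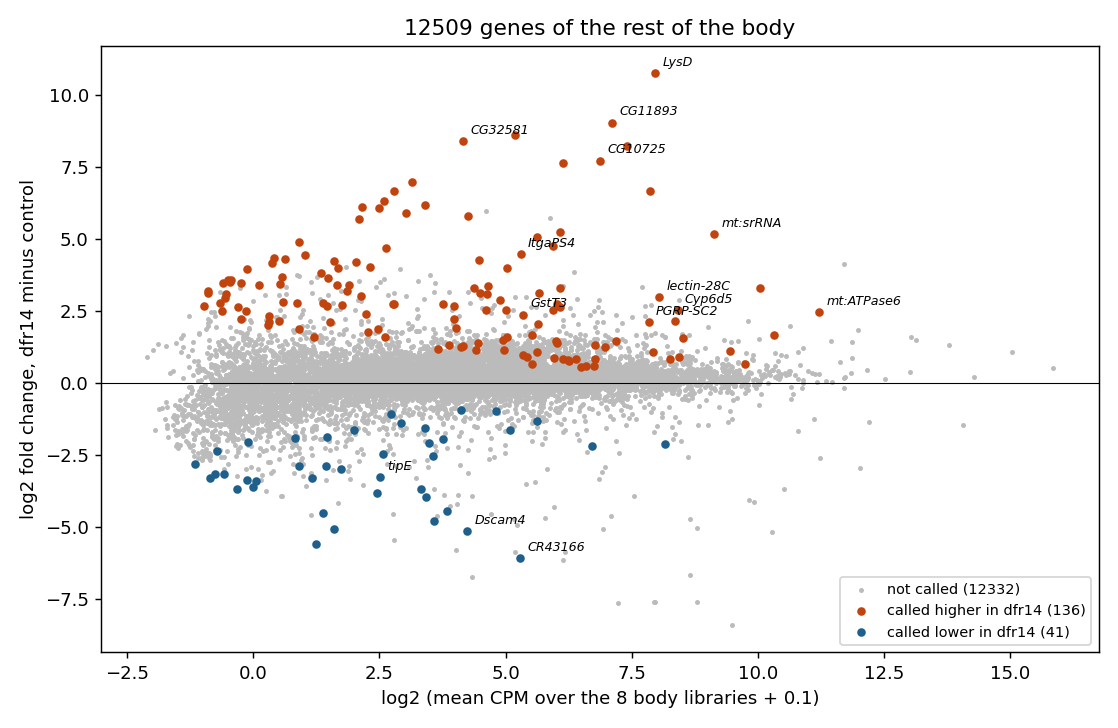
Log2 fold change (dfr14 minus control) against log2 of the mean CPM over the 8 body libraries plus 0.1, 1 point per gene of the body table. Coloured points are the 136 genes called higher and the 41 called lower by limma; most called genes lie well away from the line at 0, and a few of them are labelled.

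Of the 10 genes with the smallest p that rose in dfr14 bodies, most had low levels in control bodies, while mt:srRNA, Btnd and GstT3 averaged 30.5, 18.4 and 13.1 CPM there. CG43120, an uncharacterized gene on 3L, had 63.8, 73.2, 54.6 and 54 CPM in dfr14 bodies, against 3.4, 3.66, 4.9 and 3.25 CPM in control bodies. The antisense RNA CR45600 on 3R had 18.8, 21.7, 24.4 and 18.7 CPM in dfr14 bodies, against 0.0972, 0.269, 0.177 and 0.275 CPM in control bodies. The spread among the 4 libraries of each genotype was small beside these differences, and the log2 fold changes were 3.99 (SE 0.19, adjusted p = 0.00022) for CG43120 and 6.18 (SE 0.31, adjusted p = 0.00023) for CR45600. CG9360 on the X had 39.8, 54.4, 30.1 and 25.8 CPM in dfr14 bodies and 0.389, 0.346, 1.15 and 0.55 CPM in control bodies, a log2 fold change of 5.82 (SE 0.41, adjusted p = 0.0011). The 3 genes were called in all 8 fits that left out 1 library. Reads of an antisense gene and of its partner can be told apart only if the counting used strand, which the sources used here do not state.

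Btnd, which encodes the biotin-recycling enzyme biotinidase, changed among the well expressed genes. It had 132, 126, 123 and 85.1 CPM in dfr14 bodies, against 21.8, 13, 19.3 and 19.4 CPM in control bodies, and rose by 2.66 (SE 0.21, adjusted p = 0.002). Some genes with smaller steps passed in all 8 fits as well. The mitochondrial beta-oxidation enzyme gene CG12262 (Mcad) averaged 391 CPM in dfr14 bodies and 220 CPM in control bodies, and rose by 0.83 (adjusted p = 0.011), but not without control libraries 3 and 4 (adjusted p = 0.054). The spartin gene averaged 25.3 CPM in dfr14 bodies and 10.3 CPM in control bodies. Both were called. These last 2 genes and CG42500, which averaged 1871 CPM in dfr14 bodies and 219 CPM in control bodies and was called in 7 of the 8 fits, were picked after their values had been seen.

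**Figure D2:**
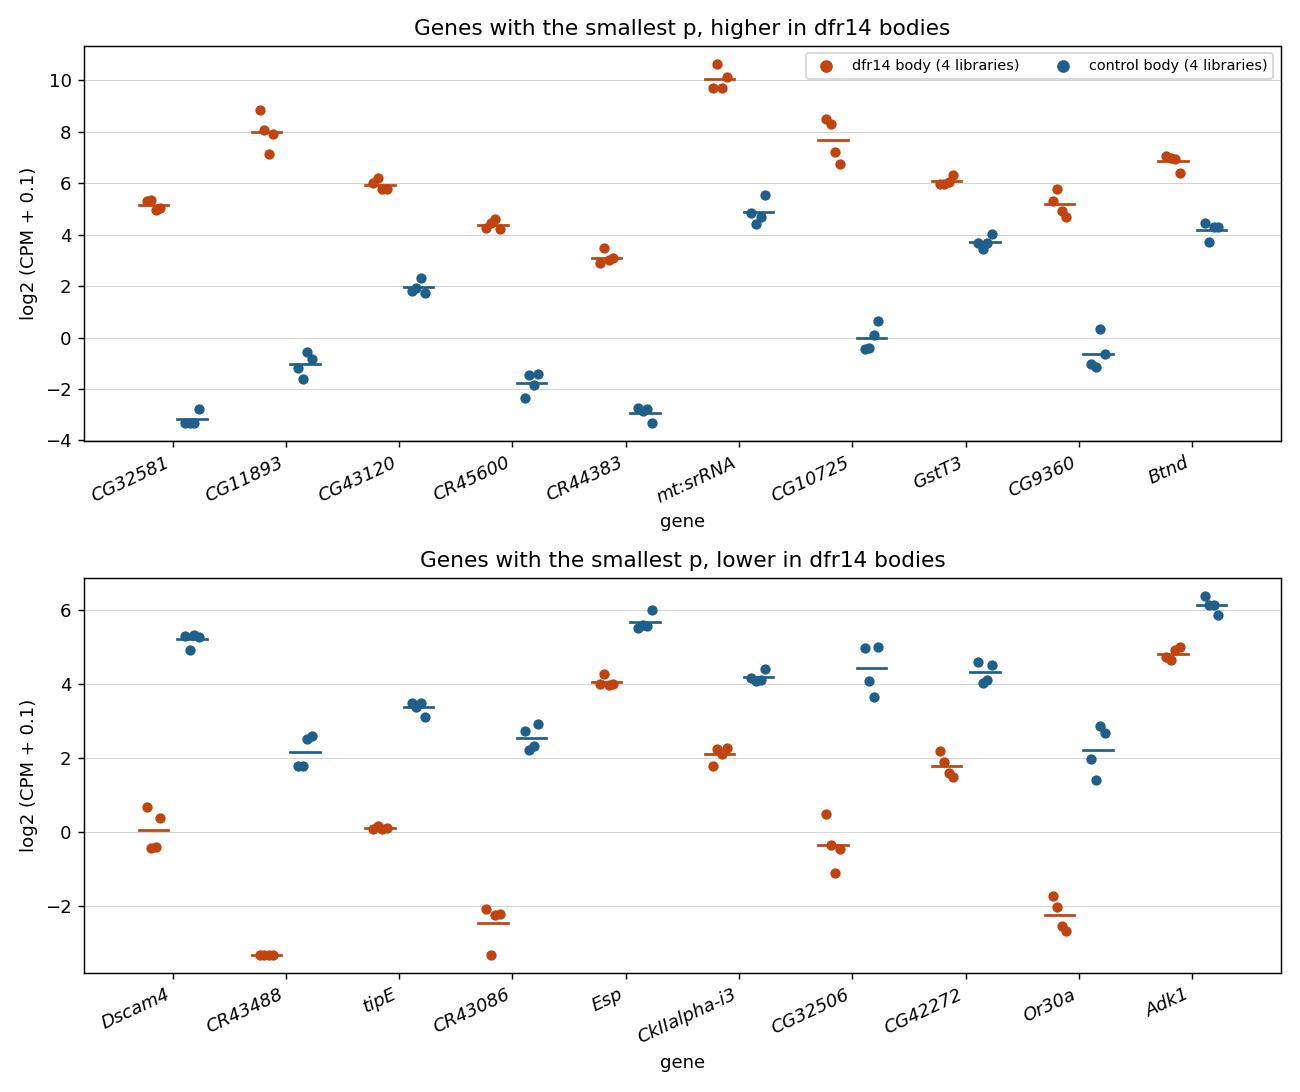
Log2 (CPM + 0.1) of the 10 genes with the smallest p in each direction, dfr14 bodies to the left of control bodies for each gene. Points are single libraries, 4 per genotype, and the bar is their mean; no gene shown has overlapping genotypes, and CR43488 sits at the floor of the axis in all dfr14 bodies.

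By p the genes that fell were led by the adhesion gene Dscam4 and the noncoding RNA gene CR43488, both described below, followed by tipE. tipE, which encodes an auxiliary subunit of the voltage-gated sodium channel, had 0.948, 1.02, 0.947 and 0.967 CPM in dfr14 bodies, against 11.1, 10.2, 11.1 and 8.52 CPM in control bodies. The dfr14 values lay within a narrow band, and the log2 fold change was -3.27 (SE 0.22, adjusted p = 0.00094). CG32506 (tbc in the current annotation) had 1.29, 0.682, 0.364 and 0.626 CPM in dfr14 bodies, against 31, 16.8, 12.4 and 31.8 CPM in control bodies, a log2 fold change of -4.80 (SE 0.46, adjusted p = 0.0055).

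Genes that were well expressed in both genotypes fell as well. Adk1, which encodes an adenylate kinase that interconverts adenine nucleotides, had 26.3, 24.6, 29.8 and 31.4 CPM in dfr14 bodies, against 82.8, 69.7, 69.6 and 58.2 CPM in control bodies. Esp had 15.8, 19, 15.5 and 15.9 CPM in dfr14 bodies, against 45.6, 48.1, 47.2 and 63.6 CPM in control bodies. CkIIalpha-i3 had 3.32, 4.63, 4.22 and 4.67 CPM in dfr14 bodies, against 17.7, 16.6, 17 and 20.9 CPM in control bodies. Adk1 fell by 1.31 on the log2 scale (SE 0.14, adjusted p = 0.0071), Esp fell by 1.61 (SE 0.15, adjusted p = 0.0044) and CkIIalpha-i3 fell by 2.08 (SE 0.19, adjusted p = 0.0045). CG42272 averaged 3.39 ± 0.784 CPM in dfr14 bodies and 19.9 ± 3.97 CPM in control bodies (SD, n = 4 each) and fell by 2.53 on the log2 scale. All 6 of these lower genes were called in each of the 8 fits that left out 1 library, and with voom weights CG32506 alone of the 6 was not (adjusted p = 0.097).

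The mitochondrial genome held 8 of the genes that rose. It encodes subunits of the respiratory chain, the 2 ribosomal RNAs of the mitochondrion and its transfer RNAs. Of its 23 genes measured, the share called was 34.8% (1.41% of all genes), and none was called lower. Without overlap, 16 were higher (6.61% of all genes), and the median log2 fold change was 1.29. The share of all reads that fell on these genes was 8.24% to 12.9% in dfr14 bodies and 6.34% to 9.52% in control bodies, ranges that overlapped. Both library sets came from a poly-A selected preparation, so the levels of ribosomal and transfer RNAs reflect only the molecules that it kept.

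The small ribosomal RNA mt:srRNA changed most. It had 840, 1591, 826 and 1113 CPM in dfr14 bodies, against 28.6, 21.4, 25.5 and 46.6 CPM in control bodies, a log2 fold change of 5.17 (SE 0.30, adjusted p = 0.0005). The large ribosomal RNA mt:lrRNA, the most abundant RNA of every body, was not called. It had 59449, 77263, 58133 and 79775 CPM in dfr14 bodies, against 38826, 36539, 51080 and 70029 CPM in control bodies, and the genotypes overlapped. Its log2 fold change was 0.52 (SE 1.04, adjusted p = 0.96, and 0.49 with voom weights), or 0.85 without control libraries 3 and 4. The wide SE draws on the spread of other abundant genes, so the test says little about this gene. In the BRGC mt:lrRNA rose by 1.24 (adjusted p = 0.037). Among the protein genes, mt:ATPase6, a subunit of the ATP synthase, had 3231, 6044, 3897 and 2921 CPM in dfr14 bodies, against 568, 592, 774 and 916 CPM in control bodies. It rose by 2.47 (SE 0.28, adjusted p = 0.0093), and the complex I subunit genes mt:ND3 and mt:ND1 rose by 2.17 (in 7 of the 8 fits that left out 1 library) and 1.69 (in 5).

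The 3 cytochrome oxidase genes separated the genotypes without passing the test. With voom weights the adjusted p was 0.065 for mt:CoI, 0.06 for mt:CoII and 0.059 for mt:CoIII, also above the threshold. mt:CoI had 16464, 25982, 20364 and 17894 CPM in dfr14 bodies, against 6523, 6503, 8853 and 10357 CPM in control bodies, with a log2 fold change of 1.33 (adjusted p = 0.23), and those of mt:CoII and mt:CoIII were 1.43 (adjusted p = 0.06) and 1.51 (adjusted p = 0.11). The transfer RNA genes went both ways. Those for tyrosine, cysteine, alanine and lysine rose, by 4.23, 3.11, 1.89 and 1.77, at mean levels of 1.12 to 7.34 CPM in dfr14 bodies and 0.0556 to 2.13 CPM in control bodies, and the last 3 of these calls were kept in 2, 1 and 1 of the 8 fits. None of the 4 was called with voom weights (adjusted p of 0.059, 0.076, 0.079 and 0.066), and the alanine gene was not called without control libraries 3 and 4 (adjusted p = 0.055). Those for arginine, valine, glycine and leucine had log2 fold changes of -1.22, -2.0, -0.39 and -0.14 and were not called. None of the 85 nuclear genes of oxidative phosphorylation measured was called, and their median log2 fold change was 0.07. In the BRGC mt:srRNA rose by 8.12, more than in the body (body minus BRGC -2.95, SE 0.51, adjusted p = 0.012), and mt:ATPase6 rose by 2.88.

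**Figure D3:**
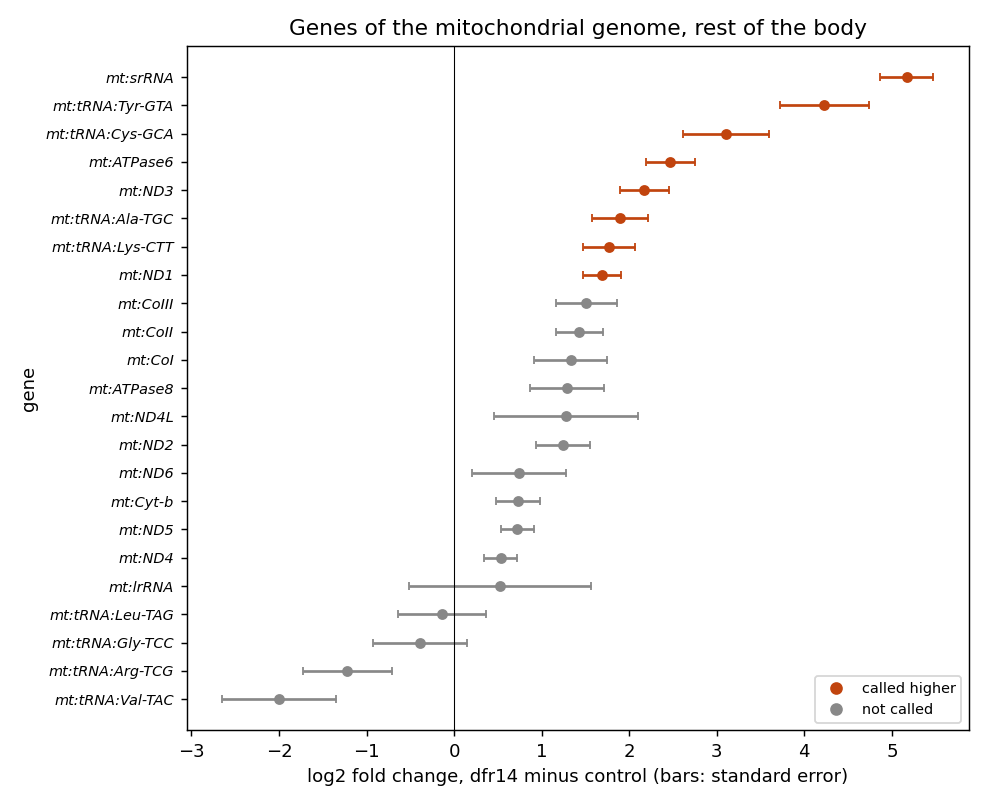
Fitted log2 fold change (dfr14 minus control) of the 23 measured genes of the mitochondrial genome, with bars of 1 standard error. The 8 coloured genes passed the test, led by mt:srRNA at 5.17, and mt:lrRNA has the widest bar. The bars draw on the spread of genes at a similar level as well as on the gene's own libraries.

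Among families of enzymes that modify foreign and lipophilic compounds, calls were few. Of the 81 cytochrome P450 genes measured, 5 rose (6.17%, against 1.09% of all genes) and none fell. A log2 fold change above 0 was found in 64, and in 63.0% of all genes. The median was 0.49, or 1.16 without control libraries 3 and 4. Cytochromes P450 are oxygenases that act on toxins, fatty acids and steroids. Cyp6d5 had 585, 691, 606 and 424 CPM in dfr14 bodies, against 94.5, 65.3, 110 and 135 CPM in control bodies. Cyp309a1 had 117, 102, 125 and 69.9 CPM in dfr14 bodies, against 19.1, 12.8, 16.4 and 23.1 CPM in control bodies. Both were higher in each dfr14 body than in any control body, by log2 fold changes of 2.54 (SE 0.25, adjusted p = 0.0055) and 2.53 (SE 0.24, adjusted p = 0.0055).

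Cyp12d1-p, a mitochondrial P450, was close to absent from control bodies. It had 25.1, 19.8, 4.11 and 5.46 CPM in dfr14 bodies, against 0, 0.0385, 0 and 0 CPM in control bodies, a log2 fold change of 6.68 (SE 0.64, adjusted p = 0.0055). The gene has a near-identical copy, so reads may be split between the copies, and the call was lost with voom weights (adjusted p = 0.24). Cyp9f3Psi and Cyp6t2Psi, which carry pseudogene names, rose by 1.68 (adjusted p = 0.043) and 3.45 (adjusted p = 0.049), each in 1 of the 8 fits that left out 1 library. In the current annotation Cyp9f3Psi is named Cyp9f3 and listed as protein-coding.

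Glutathione S-transferases, which conjugate reactive compounds to glutathione, went both ways. GstT3 had 62.9, 63.1, 66.3 and 80.5 CPM in dfr14 bodies, against 12.8, 10.9, 12.8 and 16 CPM in control bodies, and rose by 2.38 (SE 0.15, adjusted p = 0.00067). GstE5 had 0.745, 0.925, 0.583 and 0.228 CPM in dfr14 bodies, against 6.61, 5.47, 17.5 and 10.9 CPM in control bodies, and fell by 3.81 on the log2 scale (SE 0.52, adjusted p = 0.017), a call kept in 5 of the 8 fits but not with voom weights (adjusted p = 0.15). The other 30 of the 32 members measured were not called, and the median of the family was 0.12, the same as that of all genes. Of 31 UDP-glycosyltransferases, which attach sugars to lipophilic compounds, 1 was called, where 1.41% of all genes were. Ugt86Di had 4.06, 5.94, 7.57 and 4.5 CPM in dfr14 bodies, against 21.6, 17.2, 18.2 and 28.8 CPM in control bodies, and fell by 1.95 on the log2 scale (SE 0.27, adjusted p = 0.017), in 3 of the 8 fits and not without control libraries 3 and 4 (adjusted p = 0.054). The sulfotransferase gene St4, picked after its values had been seen, rose by 1.93 (adjusted p = 0.0065).

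Genes of steroid hormone handling outside the prothoracic gland changed in a few cases. Eo encodes ecdysone oxidase, which converts ecdysone to 3-dehydroecdysone. It had 71.9, 73.8, 39.5 and 34.9 CPM in dfr14 bodies, against 7.29, 5.62, 13.1 and 11.3 CPM in control bodies, and rose by 2.55 (SE 0.37, adjusted p = 0.021), although the call was kept in only 3 of the 8 fits that left out 1 library. Eo and Ugt86Di were the called members of the 7 genes listed for peripheral ecdysteroid metabolism, 1 in each direction. Of the 43 measured genes of the ecdysteroid kinase-like family, CG11893 and CG10559 rose and none fell, where 1.09% of all genes rose and 0.328% fell. A log2 fold change above 0 was found in 34, and in 63.0% of all genes. Without control libraries 3 and 4, 2 members were called higher and 1 lower, and without control library 4 alone 5 were called higher and 1 lower. CG10559 had 33.7, 36.5, 21.9 and 12.6 CPM in dfr14 bodies, against 3.69, 4.12, 6.62 and 6.74 CPM in control bodies, and rose by 2.22 (SE 0.39, adjusted p = 0.045), in 2 of the 8 fits and not without control libraries 3 and 4 (adjusted p = 0.054).

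Genes that make ecdysone and those that respond to it had no call in the body. None of the 14 synthesis genes measured passed, with a median of 0.07. The ring gland, where they act, had been removed, and some of their enzyme genes were close to the floor. phm ran from 0.195 to 3.93 CPM in dfr14 bodies and from 2.04 to 5.65 CPM in control bodies, and dib from 0.0569 to 0.243 CPM in dfr14 bodies and from 0.146 to 1.77 CPM in control bodies. Other members of the list were well read. sro ran from 28.7 to 37.4 CPM in dfr14 bodies and from 23.6 to 29.3 CPM in control bodies (adjusted p = 0.31). Npc1a averaged 310 CPM in dfr14 bodies and 189 CPM in control bodies, without overlap (log2 fold change 0.71, adjusted p = 0.058). None of the 35 ecdysone response genes passed (median -0.02), although 1, ImpL3, was called higher without control libraries 3 and 4. Fbp1, an ecdysone-induced gene of the fat body, had 40388, 40560, 53141 and 48377 CPM in dfr14 bodies, against 26111, 16361, 16729 and 27581 CPM in control bodies. These groups did not overlap, yet the gene did not pass (adjusted p = 0.61). None of the 17 juvenile hormone genes passed (median 0.26), nor did any of the 21 genes of insulin signalling and growth (median 0.17).

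Digestive enzymes varied widely among bodies of the same genotype. Of the 32 gut carbohydrases and lipases measured, 2 rose and 1 fell, where 1.09% of all genes rose and 0.328% fell. A log2 fold change above 0 was found in 26, and in 63.0% of all genes. The median was 2.0, and 2.90 without control libraries 3 and 4. Amyrel, an amylase relative that breaks down starch, had 59.5, 70.4, 16.7 and 22.8 CPM in dfr14 bodies, against 2.96, 0.731, 2.47 and 1.65 CPM in control bodies, and rose by 4.28 (SE 0.61, adjusted p = 0.02). The lipase-family gene CG6277 had 25.9, 67, 37.1 and 29.7 CPM in dfr14 bodies, against 10.3, 1.85, 4.37 and 3.71 CPM in control bodies, and rose by 3.12 (SE 0.53, adjusted p = 0.041). Lip1 had 0.677, 0.487, 0.583 and 0.854 CPM in dfr14 bodies, against 2.38, 2.08, 2.82 and 3.44 CPM in control bodies, and fell by 1.90 on the log2 scale (SE 0.31, adjusted p = 0.037). Without control libraries 3 and 4 these calls were lost, with adjusted p of 0.055 for Amyrel, 0.11 for CG6277 and 0.083 for Lip1, and none of the 3 was called with voom weights (adjusted p of 0.2, 0.079 and 0.08). Mal-A1, a maltase, had 105, 431, 67.2 and 19.2 CPM in dfr14 bodies and 5.49, 3.5, 17 and 3.71 CPM in control bodies, without passing (log2 fold change 3.86, adjusted p = 0.13).

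Lysozymes digest bacteria in the gut of flies. The measured genes of the family numbered 6, of which LysB, LysC, LysD and LysE rose, with log2 fold changes of 8.23, 8.63, 10.76 and 7.64, and the family's median of 7.93 stood the same with LysC set at its lower bound. The other 2 were not called: LysX had at most 62.2 CPM in dfr14 bodies and at least 89.3 CPM in control bodies (log2 fold change -1.62, adjusted p = 0.11), and LysS overlapped. The summed level of the family was 4144, 1161, 189 and 738 CPM in dfr14 bodies, against 166 to 342 CPM in control bodies, so dfr14 library 3 lay within the range of the controls. LysB had 908, 252, 29 and 164 CPM in dfr14 bodies, against 0.0972, 0.154, 6.8 and 0.321 CPM in control bodies. LysC, annotated as a pseudogene, had no read in any control body and was at least 1781-fold higher in dfr14 bodies (against 3 reads over the group). These genes lie next to each other on 3L and are nearly identical, so the split of reads between them is uncertain. LysC and LysD were called in all 8 fits that left out 1 library, LysB in 1 and LysE in 2. With voom weights the adjusted p of these 4 genes lay at 0.34, 0.57, 0.35 and 0.57. dfr14 library 1, the highest for LysB, also had the highest summed level of 27 digestive proteases, 38154 CPM, against 5887 to 18639 CPM in the other dfr14 bodies and 8270 to 21930 CPM in control bodies. None of those proteases was called (median 0.34), and the part of gut content in the lysozyme values was not tested.

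PGRP-SC2, a secreted amidase that degrades bacterial peptidoglycan, had 466, 394, 287 and 335 CPM in dfr14 bodies, against 83, 72.4, 119 and 67.8 CPM in control bodies, and rose by 2.12 (SE 0.22, adjusted p = 0.0065). It was the only called member of 31 immune recognition and signalling genes (median 0.27). The C-type lectins, which bind sugars on cell surfaces, had 2 members higher out of 8 (median 0.87), where 1.09% of all genes were called higher. lectin-28C had 408, 715, 270 and 485 CPM in dfr14 bodies, against 50.9, 35.3, 70.6 and 77.9 CPM in control bodies, and rose by 2.98 (SE 0.35, adjusted p = 0.011). lectin-24Db averaged 80.9 ± 33.8 CPM in dfr14 bodies and 19 ± 6.73 CPM in control bodies (SD, n = 4 each) and rose by 2.07 (adjusted p = 0.042), in 1 of the 8 fits that left out 1 library.

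Of the 29 antimicrobial peptide and other immune-induced genes measured, 2 fell and none rose, where 0.328% of all genes fell and 1.09% rose. A log2 fold change above 0 was found in 5, and in 63.0% of all genes, and the median was -1.49. Both called members were Bomanins, short peptides induced by the Toll pathway. CG15068 (BomS6) had 1.49, 0.438, 1.6 and 1.14 CPM in dfr14 bodies, against 10.8, 11.1, 38.1 and 20.8 CPM in control bodies, and fell by 3.94 on the log2 scale (SE 0.55, adjusted p = 0.018). CG16836 (BomT2) had 0.677, 1.07, 1.06 and 1.31 CPM in dfr14 bodies, against 8.02, 8.04, 45.6 and 13.2 CPM in control bodies, and fell by 3.69 on the log2 scale (SE 0.58, adjusted p = 0.03). The summed level of the list was 162 to 437 CPM in dfr14 bodies and 664, 570, 2282 and 2278 CPM in control bodies 1 to 4, so that the control libraries with glue transcripts were also the ones with the most immune-induced RNA. Without those 2 libraries the median of the list was -0.00, both Bomanins were still called (adjusted p of 0.045 for BomS6 and 0.018 for BomT2), and 4 members were called lower. BomS6 was called in 4 and BomT2 in 2 of the 8 fits that left out 1 library, and neither with voom weights (adjusted p of 0.21 and 0.35).

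Of 29 hemocyte genes 1 was called. A log2 fold change above 0 was found in 28 (median 0.81) and 10 were higher without overlap, where 63.0% of all genes lay above 0 and 6.61% were higher without overlap. ItgaPS4, an integrin alpha subunit gene, had 30.2, 131, 31.1 and 111 CPM in dfr14 bodies, against 3.01, 2.04, 2.82 and 2.7 CPM in control bodies, and rose by 4.49 (SE 0.54, adjusted p = 0.011), although not with voom weights (adjusted p = 0.16). The phagocytosis receptor gene NimC1 had 86.2, 335, 67.5 and 88.9 CPM in dfr14 bodies, against 22.4, 16.2, 46.4 and 33.3 CPM in control bodies, and Hml, a clotting factor gene, had 344, 511, 141 and 79.4 CPM in dfr14 bodies, against 75.2, 69, 194 and 139 CPM in control bodies. Neither passed (adjusted p of 0.15 and 0.63), and Hml overlapped. dfr14 library 2 was the highest in both, as in ItgaPS4 and in lectin-28C.

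Genes of the epidermis and of the tracheal system had 1 or 2 calls each. Of 61 cuticle protein genes 1 rose and 1 fell, and the median was 0.03. Cpr64Ac had 3.86, 2.73, 4.01 and 4.44 CPM in dfr14 bodies, against 0.146, 0.192, 0.0441 and 0 CPM in control bodies, and rose by 4.46 (SE 0.45, adjusted p = 0.0057). Cpr76Bc averaged 0.0669 ± 0.0919 CPM in dfr14 bodies and 1.74 ± 0.728 CPM in control bodies (SD, n = 4 each), and fell by 3.59 on the log2 scale (adjusted p = 0.023), in 3 of the 8 fits and not without control libraries 3 and 4 (adjusted p = 0.07). The pigmentation gene yellow (y) had 2.37, 1.7, 12.1 and 8.08 CPM in dfr14 bodies, against 0.291, 0.154, 0.132 and 0.229 CPM in control bodies, and rose by 3.99 (SE 0.66, adjusted p = 0.037), in 2 of the 8 fits, but neither without control libraries 3 and 4 (adjusted p = 0.097) nor with voom weights (adjusted p = 0.19).

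branchless (bnl) encodes the fibroblast growth factor that draws tracheal branches towards cells short of oxygen. It had 25.4, 24.7, 28.5 and 19 CPM in dfr14 bodies, against 12.7, 9.78, 9.97 and 8.34 CPM in control bodies, and rose by 1.25 (SE 0.19, adjusted p = 0.028). The call was kept in 3 of the 8 fits and lost without control libraries 3 and 4 (adjusted p = 0.086) and with scaling by library size alone (adjusted p = 0.09). None of the other 19 tracheal genes measured was called, and the median of the list was 0.12, or -0.03 without those 2 libraries. The receptor gene of bnl, breathless (btl), had 13.1, 16.9, 23.6 and 12.5 CPM in dfr14 bodies and 16.7, 10.6, 13 and 18.2 CPM in control bodies (log2 fold change 0.16), and trh, a transcription factor gene of the tracheal fate, was not called either (-0.09). In the BRGC bnl rose by 2.32, more than in the body (body minus BRGC -1.07, SE 0.24, adjusted p = 0.046).

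Peripheral neurons, motor axon endings and hormone-secreting cells remain in a body without its brain. Among 27 genes of synaptic release and ion channels 4 rose and 1, tipE, fell, with a median of 0.04, where 1.09% of all genes rose and 0.328% fell. unc-13, which primes synaptic vesicles for release, had 196, 275, 220 and 163 CPM in dfr14 bodies, against 88.7, 74.2, 65.8 and 79.2 CPM in control bodies, and rose by 1.45 (SE 0.17, adjusted p = 0.011). Cadps, needed for the release of dense-core vesicles, had 40, 63.5, 48.1 and 43.9 CPM in dfr14 bodies, against 17.3, 16.3, 11.8 and 17.9 CPM in control bodies, and rose by 1.62 (SE 0.20, adjusted p = 0.011). Syt4, a synaptotagmin, had 51.8, 48.4, 35.3 and 44.9 CPM in dfr14 bodies, against 8.16, 6.31, 1.06 and 5.32 CPM in control bodies, and rose by 3.39 (SE 0.59, adjusted p = 0.044), in 2 of the 8 fits.

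The same 3 genes were the only called members of the 25 neuronal genes, whose median was -0.44. The pan-neuronal marker elav had 17, 21.1, 16.2 and 18.8 CPM in dfr14 bodies, against 16.8, 16.1, 12.3 and 18.1 CPM in control bodies (log2 fold change 0.21, adjusted p = 0.73), and the active zone gene brp had 4.4, 2.29, 1.78 and 4.61 CPM in dfr14 bodies and 6.95, 5.5, 1.9 and 5.04 CPM in control bodies (log2 fold change -0.52). dpr20, of a family of immunoglobulin proteins that label neurons, had 4.74, 5.41, 7.94 and 4.32 CPM in dfr14 bodies, against 0.826, 0.385, 0.177 and 0.55 CPM in control bodies, and rose by 3.40 (SE 0.45, adjusted p = 0.014), in 4 of the 8 fits. It and Dscam4, which fell by 5.15 on the log2 scale, were the called members of 50 immunoglobulin adhesion genes (median -0.45). Trissin, the only called gene of 30 neuropeptides and peptide hormones, had 0, 0, 0 and 0.0569 CPM in dfr14 bodies, against 1.21, 0.616, 0.353 and 1.7 CPM in control bodies, and fell by 3.14 on the log2 scale (SE 0.52, adjusted p = 0.036), in 1 of the 8 fits.

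Chemosensory genes were expressed at low levels, and 4 were called. The odorant receptor gene Or30a had 0.203, 0.146, 0.0728 and 0.0569 CPM in dfr14 bodies, against 3.79, 2.54, 7.15 and 6.23 CPM in control bodies, and fell by 4.50 on the log2 scale (SE 0.45, adjusted p = 0.0057), a call kept in all 8 fits but not with voom weights (adjusted p = 0.06). Ir67b, an ionotropic receptor gene, had 0.609, 2.14, 0.546 and 1.54 CPM in dfr14 bodies and no read in any control body, so it was at least 35.9-fold higher (against 3 reads over the group). Ir56b averaged 4.7 ± 2.64 CPM in dfr14 bodies and 0.611 ± 0.21 CPM in control bodies (SD, n = 4 each) and rose by 2.67 (adjusted p = 0.049). The odorant-binding protein gene Obp50e rose by 2.14 (adjusted p = 0.049), a call that no fit with 1 library left out kept. Without control libraries 3 and 4 the adjusted p was 0.053 for Ir67b, 0.097 for Ir56b and 0.11 for Obp50e. The other 28 of 31 chemoreceptor genes and 19 of 20 odorant-binding protein genes were not called. Without those 2 libraries no chemoreceptor gene was called higher and 3 were called lower, with a median of -0.30 against 0.10 over all 8 bodies, and no odorant-binding protein gene was called higher and 1 lower.

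Transcripts of the male germ line followed the libraries. Mst84Db, a sperm protein gene, had 7.65, 2.73, 13.5 and 32.7 CPM in dfr14 bodies, against 27.7, 55.9, 13.6 and 0 CPM in control bodies. None of the 43 male germ line genes was called. Their median log2 fold change was 0.90, and -1.53 without control libraries 3 and 4, so the direction turned. Control library 4 held 0 CPM of Mst84Db and aly and 0.687 CPM of Mst87F. Leaving out that library alone moved Mst84Db from 0.57 to -1.48, Mst87F from 0.36 to -1.26 and aly from 0.80 to -0.80. Without it bam (0.51) and Tektin-C (-2.20) kept their sign. The median of the 11 Y-linked genes was 0.53, and -1.30 without control libraries 3 and 4. Pp1-Y1, a Y-linked gene for a protein phosphatase 1 catalytic subunit, was the exception: it had 0.948, 0.584, 2.08 and 2.96 CPM in dfr14 bodies and no read in any control body, at least 51-fold higher (against 3 reads over the group; adjusted p = 0.015, kept in 5 of the 8 fits). Other Y-linked genes were read in control bodies 1 to 3: kl-5, an axonemal dynein gene, had 4.94, 1.41, 7.87 and 7.85 CPM in dfr14 bodies, against 13.4, 18.4, 7.99 and 0 CPM in control bodies. The log2 fold change of kl-5 was 0.34, and -1.43 without control library 4 alone.

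Several large groups had no call. None of the 92 cytoplasmic ribosomal protein genes passed (median 0.22), and none of the 24 muscle genes (median -0.12), the 24 fat body genes (median 0.43), the 23 Malpighian tubule genes (median 0.16), the 30 imaginal disc genes (median -0.13) or the 21 heat shock genes (median 0.11). Without control libraries 3 and 4 the median turned to 0.35 for muscle and to -0.26 for heat shock genes, of which Hsp68 was then called lower (adjusted p = 0.031), and apolpp, of the fat body, was called higher (adjusted p = 0.039). None of the 19 salivary gland genes passed over all 8 bodies (median -1.79, and -0.00 without those 2 libraries). Without them the glue genes Sgs3 (-3.18, adjusted p = 0.021) and Sgs7 (-2.81, adjusted p = 0.032) were called lower, at 0.632 to 1.08 CPM in control bodies 1 and 2. ImpL3, which encodes lactate dehydrogenase, was the nearest to the threshold of the 20 glycolysis genes. It had 278, 123, 173 and 213 CPM in dfr14 bodies, against 16.5, 14.2, 75.4 and 23.3 CPM in control bodies, with a log2 fold change of 2.89 (SE 0.54, adjusted p = 0.053) and no overlap. Without control libraries 3 and 4 it was called (3.61, adjusted p = 0.0092), as it was with the Y-linked level as a covariate (adjusted p = 0.031). Of the 39 genes of DNA replication and the cell cycle, Psf1, a subunit of the replicative helicase complex, had 1.76, 1.8, 1.89 and 1.99 CPM in dfr14 bodies, against 5.88, 6.43, 6.22 and 5 CPM in control bodies, and fell by 1.61 on the log2 scale (SE 0.22, adjusted p = 0.017), in 1 of the 8 fits that left out 1 library. The median of that list was -0.02, or 0.04 without control libraries 3 and 4. Of all 50 lists, 26 had a called member.

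**Figure D4:**
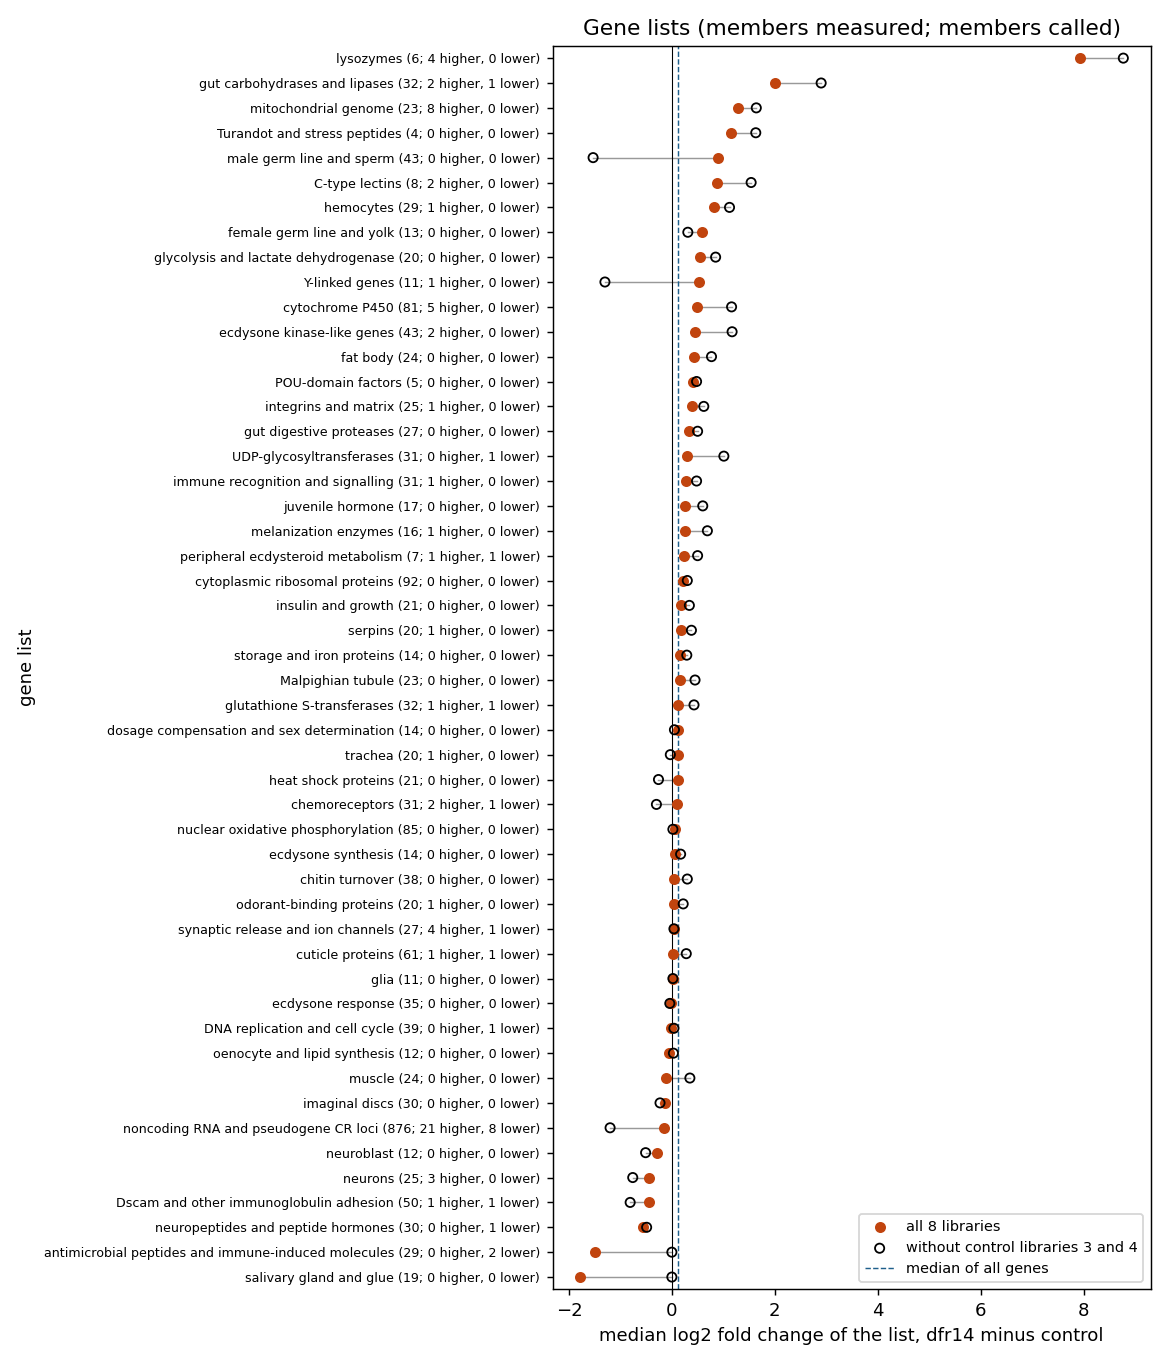
Median log2 fold change (dfr14 minus control) of each of the 50 gene lists over all 8 body libraries (filled) and without control libraries 3 and 4 (open), with the members measured and called beside each name and a dashed line at the median of all genes, 0.12. Lysozymes stand farthest to the right. Salivary gland genes stand farthest to the left over all 8 libraries, at -1.79, and at -0.00 without control libraries 3 and 4. The male germ line and Y-linked lists change side without those libraries.

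The called genes were spread over the chromosomes and partly lay together. Of the measured genes, 1.03% were called on the X, 0.931% on 2L, 1.27% on 2R, 1.83% on 3L and 1.54% on 3R, and on chromosome 4, where unc-13 and Cadps lie, both called genes of 90 measured (2.22%) rose. On 3L, which carries vvl, the share was 2.50% within 1 Mb of vvl (5 of 200 genes), 1.94% from 1 to 3 Mb, 2.71% from 3 to 6 Mb, 1.37% from 6 to 12 Mb and 0.978% beyond. Of the 169 called nuclear genes placed, 46 (27.2%) had another called gene within 25 kb, against 10.1% of all nuclear genes that had a called gene that near. These neighbours formed 33 pairs, of which 27 changed the same way and 6 in opposite ways. Most called genes rose (136 of 177), so many pairs would share a direction in any case. The pairs among LysB, LysC, LysD and LysE, whose split of reads is uncertain, count among the 27.

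Some of the pairs involve the genes described above. On the X, GstT3 (20467455 to 20469796, plus strand) starts 390 bases beyond the end of CG32506 (20449331 to 20467065, plus strand), and it rose where CG32506 fell. On 2R, the called genes CG16836, CG15068 and GstE5 lie between 18388995 and 18405338, and all 3 fell. On 3R, the called genes CG11854, CR43310, CG11893 and CG10559 lie between 25242020 and 25316116, and all 4 rose. The gene bam, in the same stretch, was not called (log2 fold change 1.23, limma, adjusted p = 0.57). CR43310, a pseudogene locus, had 36, 22.5, 2.55 and 8.76 CPM in dfr14 bodies and no read in any control body, at least 459.8-fold higher (against 3 reads over the group), a call not kept with voom weights (adjusted p = 0.38). CG11893, its neighbour, rose by 9.05 (SE 0.40, adjusted p = 0.00019). On 3L, tipE fell and Cpr64Ac, 18176 bases away, rose. CR44383 and CG32581 on the X lie 11 bases apart on opposite strands, and both rose, by 6.11 and 8.42.

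The share of genes called is given here by class of locus, without a test between the classes. Of 11519 protein-coding genes 141 were called (1.22%), of 826 noncoding RNA genes 22 (2.66%) and of 77 pseudogenes 9 (11.7%). CR43488 on 3R (19743789 to 19744477, minus strand) had no read in any dfr14 body and 3.3, 3.31, 5.56 and 5.91 CPM in control bodies, so it was at least 120.3-fold lower (against 3 reads over the group). CR44948 on 3R had 3.12, 19.4, 5.68 and 19.4 CPM in dfr14 bodies, against 0, 0, 0.0441 and 0.0458 CPM in control bodies, and rose by 6.33 (SE 0.65, adjusted p = 0.0065), but not with voom weights (adjusted p = 0.2). CR45625 on the X averaged 0.0243 ± 0.0487 CPM in dfr14 bodies and 1.37 ± 0.417 CPM in control bodies (SD, n = 4 each) and fell by 3.67 on the log2 scale (adjusted p = 0.0083). Over the 876 loci that carry a CR name, which are mostly noncoding RNA genes and pseudogenes, 21 rose and 8 fell, with a median of -0.15, and without control libraries 3 and 4 18 rose and 60 fell, with a median of -1.20. Without control library 4 alone 22 rose and 54 fell.

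Most called genes that were also measured in the BRGC changed the same way there. Of the 136 genes higher in dfr14 bodies 93 were in the BRGC table, 70 were called higher and none lower, where 10.1% of all BRGC genes were called higher. Of the 41 lower genes 29 were in that table, and 16 were called lower, where 5.90% of all BRGC genes were called lower. The exception was CG13685, which fell by 2.99 on the log2 scale in the body (adjusted p = 0.041, and 0.069 without control libraries 3 and 4) and rose by 0.55 in the BRGC. A test of the difference between the tissues, over the 9256 genes in both tables (1.29% called), passed for 21 of the 136 and 10 of the 41.

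The genes that differed were changed more in the body in some cases and more in the BRGC in others. tipE fell by 3.27 on the log2 scale in the body and by 1.47 in the BRGC (body minus BRGC -1.81, SE 0.20, adjusted p = 0.00034). CG32506 fell by 4.80 in the body, while its BRGC value was -0.01 (adjusted p = 0.99; body minus BRGC -4.79, SE 0.53, adjusted p = 0.00034). Adk1 fell in the body, with 0.38 in the BRGC (adjusted p = 0.11; body minus BRGC -1.69, SE 0.21, adjusted p = 0.00064). Esp and Trissin had BRGC values of -0.05 and -0.06, with differences of -1.57 (adjusted p = 0.01) and -3.08 (adjusted p = 0.018). Cadps and Syt4 rose more in the body, by differences of 1.43 (adjusted p = 0.018) and 2.82 (adjusted p = 0.035), and GstT3 by 1.14 (adjusted p = 0.018). Cyp309a1 rose by 5.98 in the BRGC, more than in the body (difference -3.45, SE 0.55, adjusted p = 0.008), as did Cpr64Ac, by 8.14 (difference -3.68, SE 0.49, adjusted p = 0.0014). The tables of the 2 tissues were normalized separately, so only the differences between genotypes were compared. 43 of the genes called higher and 12 of those called lower, among them Btnd, CG43120, PGRP-SC2, Eo and the lysozymes, were not in the BRGC table.

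**Figure D5:**
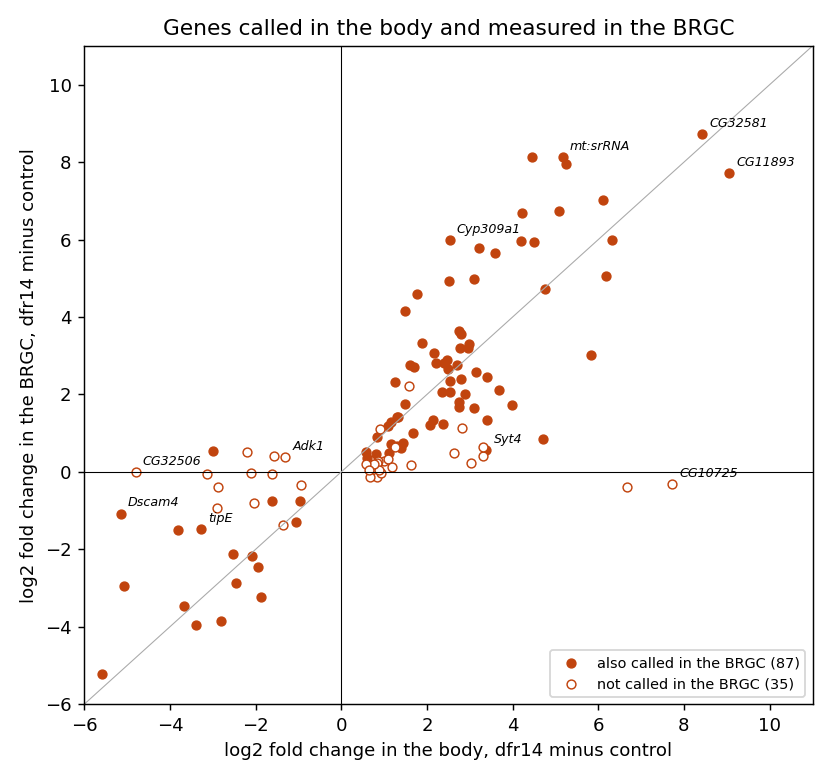
Log2 fold change (dfr14 minus control) in the BRGC against that in the body for the 122 genes called in the body and measured in both tissues, with the line of equal change. Filled points (87) were also called in the BRGC and open points (35) were not; CG32506 and CG10725 lie near the horizontal axis, and mt:srRNA and Cyp309a1 lie above the line.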

How the data were processed

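RNA from bodies and from BRGCs of wandering third-instar larvae was sequenced from poly-A selected, stranded libraries (4 per genotype and tissue). Per the labels and the study's methods, reads were trimmed with Trim Galore, mapped with STAR to BDGP6, counted per gene with featureCounts and scaled with edgeR; versions are not given in the sources used here. The authors deposited 1 table of log2 CPM values per tissue, scaled between libraries by TMM with a prior count of 2. The low values came out as whole reads for 100.0% of values (within 0.001), which gave totals of 17050491 to 27360849 reads per body library and the CPM printed here. Columns holding the authors' own fold changes, p-values and FDR were not used, nor were 16 columns of values adjusted to a baseline.

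Because the values are on a log scale, the main test was limma 3.58.1 (lmFit and eBayes with an intensity trend, R 4.3.3) on the 8 deposited log2 columns, in place of the study's exact test on counts, with Benjamini-Hochberg adjustment over all 12509 genes and a threshold of 0.05. With that prior count, changes of low genes come out smaller than they are. The BRGC was fitted alike and the tissue difference as an interaction over 9256 genes. Lower bounds set a group without reads at 3 reads. Library numbers follow the column order and are names only. Pairs of libraries of 1 genotype differed by more than counting noise, so each was kept. Positions and biotypes came from the Ensembl BDGP6 annotation by gene identifier (12456 genes placed). The fits were tested on simulated data. Python 3.11.15, numpy 2.4.6, pandas 2.3.3 and matplotlib 3.10.9 were used.

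The genes named were vvl, in each direction the 10 with the smallest p (mean of at least 1 CPM in the higher genotype, no overlap) and up to 10 with the largest change among those called in every fit that left out 1 library, of each of 50 gene lists up to 4 called members or else up to 2 with the smallest p, and tissue markers; others are said to be picked after their values were seen. Members and lists were chosen with earlier results of these data known. Alternatives were 2 other scalings (library size alone, median of ratios), a filter of 10 reads in 4 libraries, prior counts of 0.5 and 5, no trend, a robust prior variance, voom weights, library quality weights, the Y-linked level as a covariate, each library left out in turn, and both control libraries 3 and 4 left out.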

Additional observations from a re-analysis of the deposited data

Results flagged for a closer look

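In 15 of the 234 groups of 4 libraries examined, 1 library stood apart from the other 3, where chance alone sets apart about 1 group in 20. The number flagged was close to that share. The share holds for normally distributed values, and the values examined were not on a log scale. Control library 4 had 1685 genes without a read. Control library 3 had 16142 CPM summed over salivary gland genes. dfr14 library 4 had 4092 CPM summed over melanization enzymes, and dfr14 library 1 had 1321 CPM summed over neuropeptides and peptide hormones, the highest of their genotype. dfr14 library 2 had the lowest sum over serpins of its genotype, 881 CPM.

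Among single genes, the library that stood apart was dfr14 library 1 for LysE (428 CPM), dfr14 library 2 for Esp (19 CPM) and CR45625 (0.0974 CPM), and dfr14 library 4 for Trissin (0.0569 CPM). It was control library 2 for Dscam4 (30.1 CPM, the lowest) and Cyp12d1-p (0.0385 CPM), control library 3 for CG16836 (45.6 CPM) and LysB (6.8 CPM), and control library 4 for Esp (63.6 CPM) and CG32581 (0.0458 CPM). The values of CR45625, Trissin, Cyp12d1-p and CG32581 rest on 1 or 2 reads.

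For 21 of the 106 named genes measured in both tissues the change differed between body and BRGC (limma interaction, adjusted p under 0.05). On the log2 scale, the body change minus the BRGC change was 8.05 for CG10725, 7.05 for Tektin-C, 2.82 for Syt4 and 2.80 for CG9360. It was 2.05 for dpr20, 1.43 for Cadps, 1.14 for GstT3, 1.12 for RpL22 and 0.83 for Npc1a. The body change minus the BRGC change was -4.79 for CG32506, -4.07 for Dscam4, -3.68 for Cpr64Ac, -3.45 for Cyp309a1, -3.08 for Trissin, -2.95 for mt:srRNA, -2.65 for Spn88Eb, -2.13 for CR43086, -1.81 for tipE, -1.69 for Adk1, -1.57 for Esp and -1.07 for bnl. Tektin-C, Npc1a and RpL22 were not called in the body, where their log2 fold changes were -1.96, 0.71 and 0.82.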

How the results depend on the processing

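Genes called higher numbered 136, against 49 with voom weights, 1018 with library quality weights, 376 with the Y-linked level as a covariate and 57 to 143 with 1 library left out. Genes called lower numbered 41, against 81 with library size alone, 13 with voom weights, 487 with quality weights, 390 with the Y-linked covariate, 107 without control libraries 3 and 4, and 14 to 102 with 1 library left out. The quality weights ran from 0.15 for control library 4 to 7.25 for control library 1. Under the other alternatives the counts were 113 to 141 higher and 34 to 55 lower. Of the 63 named genes called, 33 were called with voom weights, 38 to 59 with 1 library left out and 26 under every alternative in which they were tested, and none changed sign. With voom weights, calls lost and not yet given had adjusted p of 0.054 (Pp1-Y1, Ir67b), 0.06 (Ugt86Di, Spn88Eb), 0.064 (lectin-24Db), 0.065 (Cyp9f3Psi), 0.072 (Cpr76Bc), 0.074 (CR43166), 0.087 (Trissin), 0.11 (Ir56b, Obp50e) and 0.14 (CG10559). With library size alone, Syt4 (adjusted p = 0.069), y (0.058), Ir56b (0.053), CG6277 (0.051) and Obp50e (0.1) were lost. Lists with a called member numbered 26, against 14 with voom weights, 43 with quality weights and 15 to 26 with 1 library left out. Setting genes without a read at their bound moved the median of 1 list, salivary gland genes, to -2.32 from -1.79. No paired analysis was possible because the columns carry no replicate numbers. Depth limits genes near 1 CPM, where a library holds few reads.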

Other observations

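Some genes outside the lists changed at high levels, and those given here were picked after their values had been seen. CG3819 averaged 463 CPM in dfr14 bodies and 2.85 CPM in control bodies and rose by 6.67 on the log2 scale (SE 1.04, adjusted p = 0.028), with 1255, 451, 79.7 and 68.2 CPM in dfr14 bodies 1 to 4. CG1208 averaged 132 CPM in dfr14 bodies and 3.51 CPM in control bodies and rose by 5.24 (adjusted p = 0.012). CG42798, on 3R, averaged 122 CPM in dfr14 bodies and 12.9 CPM in control bodies and rose by 3.29, while CG42822, 6367 bases away, fell by 1.37 on the log2 scale (adjusted p = 0.022). mthl2, of the methuselah-like receptor family, averaged 91 CPM in dfr14 bodies and 9.6 CPM in control bodies and rose by 3.14 (adjusted p = 0.011).

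Among lower genes, CG17738 averaged 110 CPM in dfr14 bodies and 461 CPM in control bodies and fell by 2.11 on the log2 scale (adjusted p = 0.03), and CG3348 averaged 38.2 CPM in dfr14 bodies and 171 CPM in control bodies and fell by 2.19 (adjusted p = 0.049). Ada, which encodes adenosine deaminase, averaged 4.2 CPM in dfr14 bodies and 8.85 CPM in control bodies and fell by 1.06 (adjusted p = 0.043). Without control libraries 3 and 4 the adjusted p was 0.095 for CG17738, 0.13 for CG3348, 0.089 for Ada and 0.072 for CG42822. With voom weights it was 0.24 for CG3819 and 0.087 for CG1208. The metallothionein gene MtnB and the small heat shock gene l(2)efl were lower without overlap and did not pass. MtnB had 8.6, 3.41, 3.24 and 9.39 CPM in dfr14 bodies, against 25, 17.4, 24 and 41.7 CPM in control bodies (log2 fold change -2.21, adjusted p = 0.073), and l(2)efl had 343, 211, 125 and 141 CPM in dfr14 bodies, against 428, 450, 492 and 572 CPM in control bodies (log2 fold change -1.35, adjusted p = 0.11).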
